A study of Saccharomyces eubayanus and Saccharomyces cerevisiae x Saccharomyces eubayanus with 20 samples.

Results

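The sugar kinase genes HXK1, HXK2, GLK1 and EMI2 were followed across all libraries of a study of maltotriose use in the lager yeast parent Saccharomyces eubayanus and in a laboratory hybrid with Saccharomyces cerevisiae. The genes were taken by their standard names, which gave 4 of 5513 rows in the tables of the S. eubayanus strains and 8 of 11292 rows in the tables of the hybrid, where each gene has an S. eubayanus (Se) and an S. cerevisiae (Sc) copy. The study sequenced messenger RNA from 20 shake-flask cultures on synthetic medium with 20 g/L of sugar, 2 cultures per strain and sugar. Values are FPKM, read counts scaled for gene length and library depth. Strain IMX1939 carries S. cerevisiae MAL13 under the constitutive ScPGK1 promoter in place of SeSGA1 and lacks the transporter gene SeMALT1, and it was grown on maltotriose, maltose and glucose. Strain IMX1765 has the same MAL13 cassette with SeMALT1 intact and was grown on the same sugars. Hybrid HTS020, obtained by mating spores of S. cerevisiae CBC-1 with spores of S. eubayanus CDFM21L.1, was also grown on the 3 sugars. CDFM21L.1, the unmodified parent of the other strains, was grown on glucose only, so that its response to the other sugars was not measured. No library of CBC-1 was analysed here.

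Maltose and maltotriose are taken up by transporters and split inside the cell by maltase, so that sugar from either source reaches metabolism as intracellular glucose, which a hexokinase must phosphorylate to glucose 6-phosphate. In S. cerevisiae this is done by the hexokinases Hxk1 and Hxk2, which also act on fructose, and by the glucokinase Glk1, while EMI2 is the duplicated relative of GLK1. HXK2 is the main gene of S. cerevisiae during growth on high glucose, and its product also takes part in glucose repression together with the repressor Mig1, whereas HXK1 and GLK1 are known as glucose-repressed genes.

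In the CDFM21L.1 assembly SeHXK1 lies on chromosome 6 (231634 to 233091, minus strand), SeHXK2 on chromosome 7 (76167 to 77627, plus strand), SeGLK1 on chromosome 3 (45799 to 47301, plus strand) and SeEMI2 on chromosome 2 (1250468 to 1251970, minus strand). In the CBC-1 assembly ScEMI2 lies on chromosome 4 (1437176 to 1438678, minus strand) and the other Sc copies are on the chromosomes of their Se counterparts. Both annotations give the same lengths, which are 1458 bases for HXK1, 1461 for HXK2 and 1503 for GLK1 and EMI2. In the S. cerevisiae reference S288C (RefSeq, build R64) the coding sequences of HXK1 and HXK2 were identical at 77.8% of 1458 aligned bases, with a longest shared exact stretch of 23 bases. For GLK1 and EMI2 the values were 69% of 1499 aligned bases and 15 bases. The remaining pairs lay between 60.1 and 61.1%.

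The sequences before the start codons were read from S288C, as no promoter table was given. They are neither those of CBC-1 nor those of S. eubayanus. The 500 bases upstream of each start codon were searched on both strands for AGGGG, the core of the stress response element, and for GCGGGG or GTGGGG, the core bound by Mig1. HXK1 had 3 and 1 matches, GLK1 3 and 1, EMI2 2 and 1, and HXK2 had no match to either motif. Of 6006 upstream regions of this length, 34.1% held the stress response core, 1.83% held at least 3 matches to it, and 13.6% held a Mig1 core. For either motif a region without a match, like that of HXK2, was thus the more common case. In the windows that follow, capitals mark the matches, and each is written on the strand of its gene. The HXK1 window (chr6:255520-255549, minus strand) holds a Mig1 match between a pair of stress response matches, the first GLK1 window (chr3:50651-50680, plus strand) holds 3 stress response matches, and the second (chr3:50610-50635) a Mig1 match. The EMI2 windows (chr4:1476817-1476841 and chr4:1476768-1476793, minus strand) hold 1 match each. A match is no evidence that a factor binds there.
HXK1: gCCCCTgaaCCCCACtattctgCCCCTttg
GLK1, stress response core: gtcaaCCCCTttcAGGGGgcCCCCTatctt
GLK1, Mig1 core: ggcgcttgcaCCCCGCattataagtg
EMI2, stress response core: tgggcccttcAGGGGtagttgcctg
EMI2, Mig1 core: gacaaaaaacGCGGGGcatccagaaa

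Of the 20 libraries, 19 held 16874233 to 27175322 reads on genes, whereas the first maltotriose culture of IMX1765 held 318922. Replicate cultures of some groups stood far apart. The share of rows that differed more than 2-fold between both cultures was 22.1% for IMX1765 on maltotriose, 7.44%, 3.72% and 5.96% for IMX1939 on maltotriose, maltose and glucose, 3.55% for HTS020 on maltose, and 0.0555 to 0.801% for the other 5 groups. SeMALT1 had 0.715 to 1.23 FPKM in IMX1939 and 7.03 to 25.9 FPKM in IMX1765 on maltotriose. ScMAL13 had 226 to 28485 reads in the engineered strains and 4 to 6 in CDFM21L.1, while SeSGA1 had 0 to 7 reads in the engineered strains and 36 to 48 in CDFM21L.1. Free-text descriptions of 3 hybrid libraries name maltose where the title and the carbon source tag name maltotriose, or the reverse, and the titles were followed. By title, the maltase gene SeMALS1 had 79.5 and 87.5 FPKM on maltotriose, 902 and 1128 FPKM on maltose and 9.28 and 9.29 FPKM on glucose in the hybrid, so that both cultures of each titled sugar lay together. The labels give an optical density of 12.5 at sampling for all cultures, while the methods give a higher value for maltotriose than for the other sugars. If the methods hold, sugar and culture density at sampling cannot be told apart for maltotriose.

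In the S. eubayanus strains HXK1 was the most abundant of the 4 genes on maltose and maltotriose, HXK2 was lower on maltotriose than on maltose or glucose in both cultures of IMX1939. The only members that passed the test were in IMX1939 on maltotriose against glucose, where HXK2 fell and GLK1 rose. For HXK1, one of the glucose-repressed hexokinases, IMX1765 had 1288 and 3390 FPKM on maltotriose, 1924 and 3252 FPKM on maltose, and 624 and 976 FPKM on glucose. IMX1939 had 1426 and 4553 FPKM on maltotriose, 977 and 2679 FPKM on maltose, and 160 and 2021 FPKM on glucose. In IMX1765 every culture on maltose or maltotriose was above both glucose cultures. In IMX1939 the second glucose culture was above the first cultures on maltose and on maltotriose, so that the groups overlapped.

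HXK2, the gene of the hexokinase prevailing on glucose in S. cerevisiae, showed another order. In IMX1939 it had 286 and 165 FPKM on maltotriose, 538 and 459 FPKM on maltose, and 673 and 767 FPKM on glucose. In IMX1765 it had 612 and 238 FPKM on maltotriose, 457 and 534 FPKM on maltose, and 607 and 648 FPKM on glucose. The sugar groups of IMX1939 did not overlap. In IMX1765 maltose lay below glucose, and the shallow first maltotriose library lay within the range of glucose whereas the second was lower than all other cultures of that strain.

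GLK1, the glucokinase gene, had 490 and 1326 FPKM on maltotriose, 314 and 631 FPKM on maltose, and 41.6 and 324 FPKM on glucose in IMX1939. In IMX1765 the values were 154 and 700 FPKM on maltotriose, 275 and 370 FPKM on maltose, and 127 and 136 FPKM on glucose. Maltotriose cultures lay above the glucose cultures in either strain, and in IMX1939 the second glucose culture again lay above the first maltose culture. EMI2, its relative, was below the other genes in each S. eubayanus library except the first glucose culture of IMX1939, where GLK1 was lower, and the second maltotriose culture of IMX1939, where HXK2 was. It had 181 and 435 FPKM on maltotriose, 170 and 300 FPKM on maltose and 49.1 and 246 FPKM on glucose in IMX1939. In IMX1765 it had 87.6 and 234 FPKM on maltotriose, 88.9 and 229 FPKM on maltose and 79.1 and 93.7 FPKM on glucose. For EMI2 the sugar groups overlapped in both strains. The plot of the S. eubayanus strains shows the same values on a log axis.

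**Figure D1:**
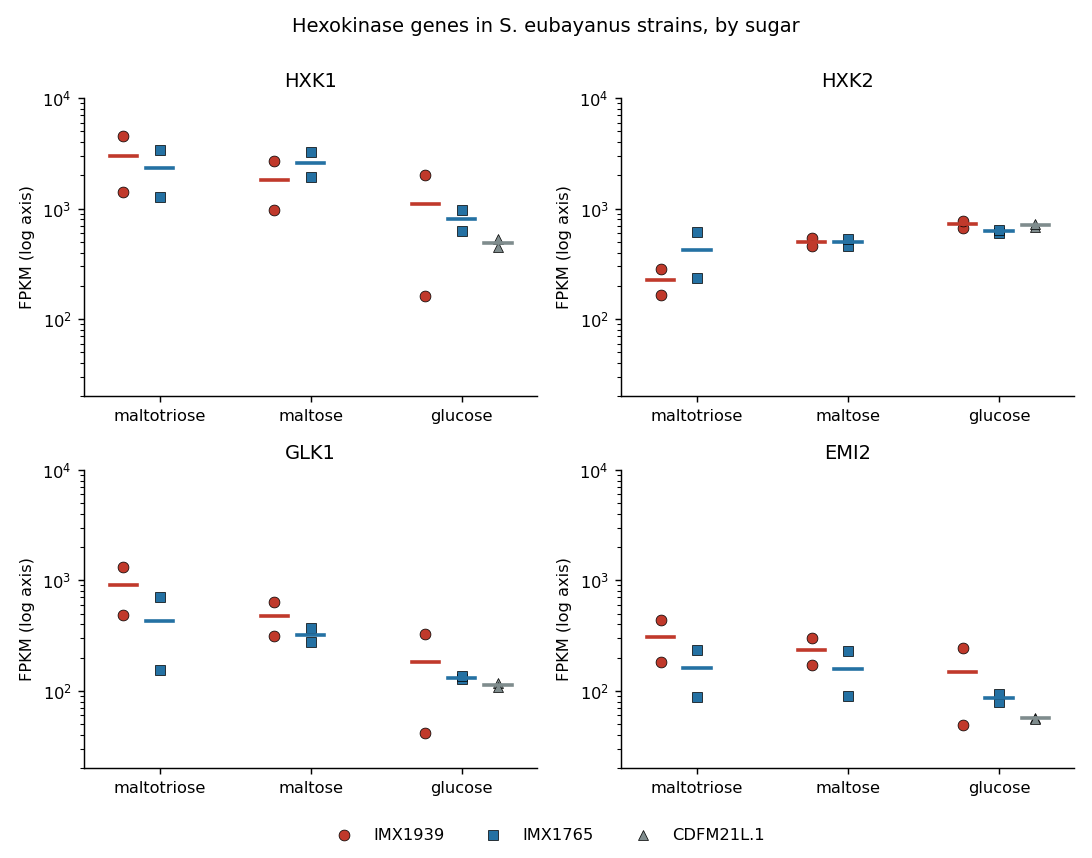
FPKM (log axis) of HXK1, HXK2, GLK1 and EMI2 in S. eubayanus strains IMX1939, IMX1765 and CDFM21L.1 by sugar, with 1 point per culture (2 per group) and a bar at the group mean. The cultures of IMX1939 on glucose are far apart for HXK1 (160 and 2021 FPKM) and close together for HXK2 (673 and 767 FPKM).

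Sugars were compared within each strain with limma on log2(FPKM + 1), on 14 libraries together, and a gene was called at a Benjamini-Hochberg adjusted p under 0.05 over 5404 rows. On maltotriose against glucose in IMX1939, 2 of 4 genes were called, against 39.8% of all rows (23.8% higher and 16% lower). HXK2 fell by 1.72 on the log2 scale (SE 0.38, limma with Benjamini-Hochberg adjusted p = 0.00758), a ratio of means of 0.313 ± 0.122 (SD, n = 2 each). GLK1 rose by 2.78 (SE 0.93, limma with Benjamini-Hochberg adjusted p = 0.0386), a ratio of means of 4.96 ± 6.31. Fitted on the compared groups alone, GLK1 was not called (limma with Benjamini-Hochberg adjusted p = 0.126), in a fit that called 1177 of all rows in place of 2152. HXK1 and EMI2 differed by 2.16 and 1.34 with limma adjusted p-values of 0.125 and 0.187. With one culture left out the differences ran from -2.11 to -1.33 for HXK2 and from 1.31 to 4.24 for GLK1. They ran from 0.33 to 3.98 for HXK1 and from 0.19 to 2.49 for EMI2. The calls of HXK2 and GLK1 were lost without the second maltotriose culture, and that of GLK1 also without the first glucose culture.

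In the other sugar comparisons of the S. eubayanus strains limma called 0 of 4 genes. In IMX1939 this held for maltose against glucose, where 16.2% of all rows were called (13.8% higher, 2.35% lower), and for maltotriose against maltose, where 1.48% were (0.444% higher, 1.04% lower). In IMX1765 it held for maltose against glucose (9.34% of all rows, 7.4% higher and 1.94% lower), maltotriose against glucose (6.18%, 4.59% higher and 1.59% lower) and maltotriose against maltose (0%). At an unadjusted p under 0.05 the count was 1 for maltotriose against maltose in IMX1939, where 1275 of 5404 rows had such a p. A count of 1 in 4 is near that share. In the other 4 comparisons the count was 0, where 411 to 1501 rows had such a p. Limma voom on recovered reads also called 0 in each, without the share of all rows beside it. The gene with the unadjusted p under 0.05 was HXK2, at -1.19 (95% interval -2.04 to -0.34, limma with Benjamini-Hochberg adjusted p = 0.153). For HXK1 on maltose against glucose in IMX1765 the difference of 1.68 had a 95% interval of -0.66 to 4.02. Fitted on these groups alone, HXK1 and GLK1 were called (limma with Benjamini-Hochberg adjusted p = 0.00717 and 0.00142), in a fit that called 1849 of all rows in place of 505. Without the shallow maltotriose library of IMX1765, HXK2 differed by -1.39 on maltotriose against glucose in that strain. Without the second glucose culture of IMX1939, HXK1 and GLK1 were higher by 3.33 and 3.39 on maltose than on glucose. The lowest differences with one culture left out were -0.32 and 0.45 for these genes. Without the maltotriose group of IMX1765, HXK2 was called on maltotriose against maltose in IMX1939 at the same difference (adjusted p = 0.0169 in limma with Benjamini-Hochberg), in a fit that called 725 of all rows in place of 80.

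On glucose the strains were also set side by side, with CDFM21L.1 at 526 and 449 FPKM for HXK1, 689 and 728 FPKM for HXK2, 119 and 109 FPKM for GLK1 and 57 and 55.7 FPKM for EMI2. HXK2 lay between 607 and 767 FPKM over all glucose cultures of these strains. HXK1, GLK1 and EMI2 were higher and HXK2 lower in both IMX1765 cultures than in both CDFM21L.1 cultures. The share of all rows separated in this way was not counted, so this is no mark of the family. IMX1939 overlapped CDFM21L.1 for all 4 genes. Limma called 0 of 4 genes in each of the strain comparisons, with 0.222% of all rows called for IMX1939 against CDFM21L.1 (0.0925% higher, 0.13% lower), 0.037% for IMX1765 against CDFM21L.1, 1.3% (0.167% higher, 1.13% lower) for IMX1939 against IMX1765 on glucose, and 0% for the same strains on maltose and on maltotriose. The difference between IMX1939 and IMX1765 in the response to maltose (0% of all rows) or maltotriose (0.0185%), tested as an interaction, was called for 0 of 4 genes. In these 7 comparisons the count at an unadjusted p under 0.05 was 0 as well, where 263 to 1359 of 5404 rows had such a p. The count by limma voom was also 0. Fitted on the compared groups alone, HXK1 and EMI2 were called as higher in IMX1765 than in CDFM21L.1 (0.68 and 0.60 on the log2 scale, limma with Benjamini-Hochberg adjusted p = 0.0297 and 0.00452), in a fit that called 1678 of all rows in place of 2.

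In hybrid HTS020 on maltotriose both copies of HXK2 fell to the lowest levels of the family, and the Sc copy of GLK1 was the most abundant of the 8 copies in both cultures. On maltose HXK1, GLK1 and EMI2 of both subgenomes rose. SeHXK2 had 25.5 and 24.5 FPKM on maltotriose, 371 and 364 FPKM on maltose and 280 and 348 FPKM on glucose. ScHXK2 had 23.3 and 25 FPKM on maltotriose, 238 and 210 FPKM on maltose and 326 and 405 FPKM on glucose. The sugar groups did not overlap for either copy, and the copies differed in order, with maltose above glucose for SeHXK2 and below it for ScHXK2.

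SeHXK1 had 478 and 470 FPKM on maltotriose, 757 and 1996 FPKM on maltose and 145 and 357 FPKM on glucose. ScHXK1 had 329 and 285 FPKM on maltotriose, 979 and 2309 FPKM on maltose and 229 and 414 FPKM on glucose. All maltose cultures were above all other cultures for both copies, whereas the maltotriose cultures lay above glucose for SeHXK1 and within the glucose range for ScHXK1. The replicates of both copies differed more than 2-fold on maltose and lay close together on maltotriose.

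ScGLK1 had 566 and 489 FPKM on maltotriose, 238 and 459 FPKM on maltose and 73.9 and 82 FPKM on glucose, in non-overlapping groups. SeGLK1 had 153 and 169 FPKM on maltotriose, 178 and 399 FPKM on maltose and 59.2 and 67.2 FPKM on glucose. The order of maltotriose and maltose was thus reversed between the copies. ScEMI2 had 97.2 and 72.9 FPKM on maltotriose, 128 and 270 FPKM on maltose and 38.8 and 50.1 FPKM on glucose. SeEMI2 had 38.6 and 30.9 FPKM on maltotriose, 88.4 and 204 FPKM on maltose and 37.4 and 52.8 FPKM on glucose. Only for SeEMI2 did the maltotriose cultures overlap the glucose cultures in this gene pair. The plot of the hybrid's copies places these values side by side.

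**Figure D2:**
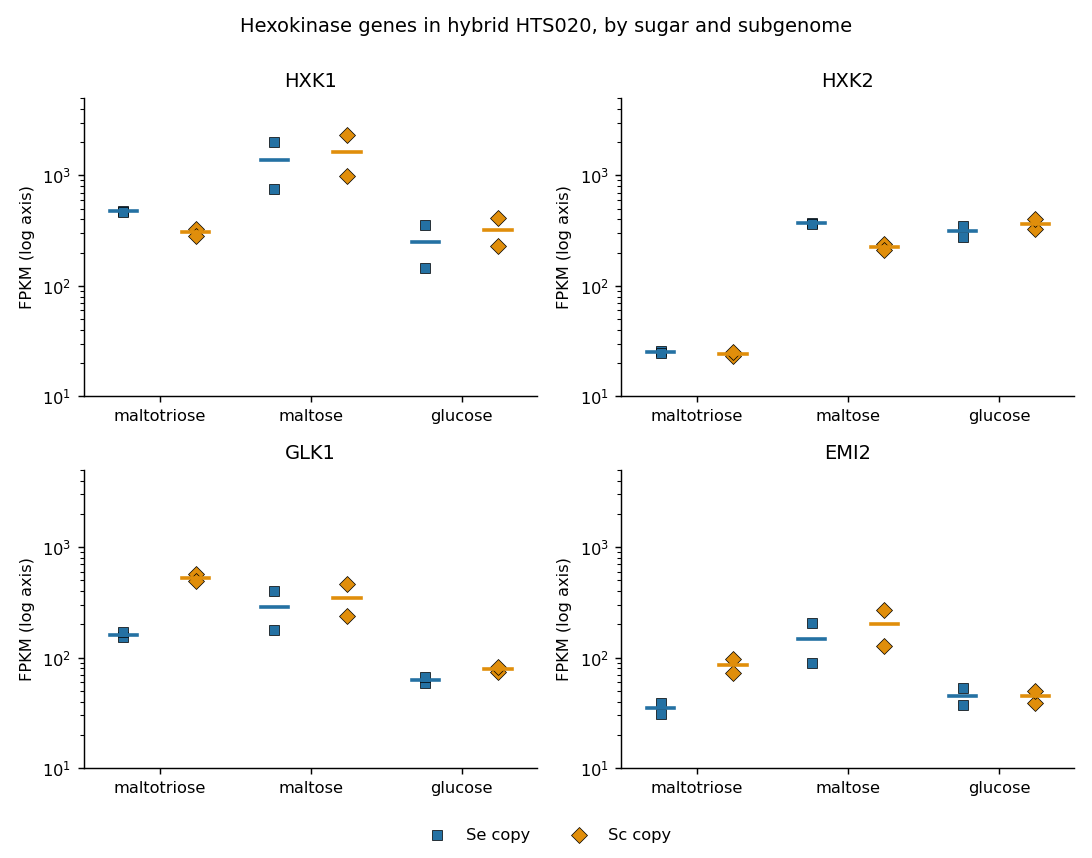
FPKM (log axis) of the Se and Sc copies of HXK1, HXK2, GLK1 and EMI2 in hybrid HTS020 by sugar, with 1 point per culture (2 per group) and a bar at the group mean. HXK2 of both subgenomes lies between 23.3 and 25.5 FPKM on maltotriose, and ScGLK1 (566 and 489 FPKM) lies above SeGLK1 (153 and 169 FPKM) there.

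On maltotriose against glucose limma called 5 of 8 copies in the hybrid, against 71% of all rows (31.3% higher, 39.7% lower), a share near the background, and limma voom called 4. The sizes, as ratios of mean FPKM, were 12.5 ± 1.96-fold lower for SeHXK2 (SD of the ratio, n = 2 each; log2 -3.59, limma with Benjamini-Hochberg adjusted p = 2.5e-06) and 15.1 ± 2.44-fold lower for ScHXK2 (log2 -3.86, adjusted p = 2.52e-06). ScGLK1 rose 6.77 ± 0.856-fold (log2 2.74, limma adjusted p = 0.000149), SeGLK1 2.55 ± 0.29-fold (1.34, 0.00924) and ScEMI2 1.91 ± 0.518-fold (0.92, 0.0445). The differences were 1.05 for SeHXK1 (limma adjusted p = 0.106), -0.35 for SeEMI2 (0.421) and -0.01 for ScHXK1 (0.984). The median over all rows was -0.14 in this comparison. With one culture left out the SeHXK1 difference ran from 0.41 to 1.70 and that of SeGLK1 from 1.25 to 1.43. SeGLK1 lost its call without the second maltotriose culture. ScEMI2 lost its call without any one of the 4 cultures compared, at adjusted p-values of 0.0643 to 0.222 in limma, and also under voom, without the trend and without the filter (0.0557, 0.0514 and 0.0739).

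On maltose against glucose limma called 7 of 8 copies, against 11.4% of all rows (8.47% higher, 2.98% lower), and limma voom also called 7. SeHXK1 rose by 2.43 and ScHXK1 by 2.28 on the log2 scale (limma with Benjamini-Hochberg adjusted p = 0.0298 and 0.0179), SeGLK1 by 2.06 and ScGLK1 by 2.07 (0.0112 and 0.0056 in the same test), and SeEMI2 by 1.58 and ScEMI2 by 2.05 (0.0413 and 0.0123). ScHXK2 fell by 0.70 (limma adjusted p = 0.0274), while SeHXK2 differed by 0.24 (95% interval -0.08 to 0.56, limma adjusted p = 0.271). The SeEMI2 call was lost without the trend, with median-ratio rescaling, with quantile normalization and without the filter (limma adjusted p = 0.0528, 0.058, 0.0539 and 0.0778), and the SeHXK1 call without the filter (0.0653). Most of the calls were lost without the first or without the second glucose culture, and some without the second maltose culture. The share of all rows called in those fits was not set beside them. The direction of the 7 called copies was the same in each case.

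On maltotriose against maltose limma called 5 of 8 copies, against 64.8% of all rows (28.1% higher, 36.7% lower), and limma voom called 6, with SeHXK1 (adjusted p = 0.0427) past the threshold. SeHXK2 fell by 3.83 and ScHXK2 by 3.16 on the log2 scale (limma with Benjamini-Hochberg adjusted p = 3.04e-06 and 7.77e-06), ScHXK1 fell by 2.29 (0.00254), SeEMI2 by 1.93 (0.00345) and ScEMI2 by 1.14 (0.022). The other copies were at -1.37 for SeHXK1 (limma adjusted p = 0.0512), -0.73 for SeGLK1 (0.0928) and 0.67 for ScGLK1 (0.0716). Without the first maltose culture SeHXK1 and SeGLK1 were at -2.07 and -1.31. Without the second ScGLK1 was at 1.14, and ScEMI2 was at -0.60 and lost its call. ScEMI2 also missed the threshold without either maltotriose culture (-1.34 and -0.93, limma adjusted p = 0.0551 and 0.142). Under the other settings that kept all cultures, voom among them, 985 to 1387 of all rows were called on maltose against glucose. On maltotriose 7364 to 7963 were called against glucose and 6736 to 7308 against maltose. The 3 comparisons of the hybrid share cultures.

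The response of the Se and Sc copies was compared through the log2 ratio of Se to Sc within each library, over 3537 gene pairs with at least 10 FPKM in each subgenome. This ratio is free of the scaling of a library. On glucose the Se copies held 38.8 and 46.3% of the HXK1 transcript, 46.1 and 46.2% of HXK2, 44.5 and 45% of GLK1 and 49.1 and 51.3% of EMI2. On maltotriose the Se share was 59.2 and 62.2% for HXK1, 52.3 and 49.5% for HXK2, 21.3 and 25.7% for GLK1 and 28.4 and 29.8% for EMI2. On maltose it was 60.9 and 63.4% for HXK2, and for the other genes it lay between 40.8 and 46.5%. SeHXK1 thus outweighed ScHXK1 on maltotriose only, and SeHXK2 outweighed ScHXK2 in both maltose cultures, in neither glucose culture and in 1 of the 2 maltotriose cultures.

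On maltose against glucose the ratio changed for 2 of 4 genes, against 5.09% of all pairs (3.05% higher, 2.04% lower). The HXK2 ratio rose by 0.94 on the log2 scale (SE 0.10, limma with Benjamini-Hochberg adjusted p = 0.00166), a difference larger in size than that of 98% of pairs. It held when any one culture was left out, at 0.86 to 1.01. The EMI2 ratio fell by 0.48 (limma adjusted p = 0.0399) and lost its call without any one of the 4 cultures. HXK1 and GLK1 were at 0.15 and -0.01 (limma adjusted p = 0.657 and 0.99). On maltotriose against glucose the ratio changed for 4 of 4 genes, against 60.8% of all pairs (27.7% higher, 33.1% lower), by 1.06 for HXK1 (limma adjusted p = 0.000237), 0.27 for HXK2 (0.0384), -1.40 for GLK1 (3.37e-05) and -1.27 for EMI2 (2.38e-05). On maltotriose against maltose it also changed for 4 of 4 genes, against 59.1% of all pairs (26.3% higher, 32.9% lower), by 0.92 for HXK1 (limma adjusted p = 0.000566), -0.67 for HXK2 (0.000513), -1.40 for GLK1 (4.1e-05) and -0.79 for EMI2 (0.000347). The HXK2 ratio of maltotriose against glucose missed the threshold without either glucose culture or without the first maltotriose culture (limma adjusted p = 0.164, 0.16 and 0.113). On maltotriose the ratios of GLK1 and EMI2 were lower and that of HXK1 higher than on either other sugar. On maltotriose the mean ratio of GLK1 was -1.70, with 3.31% of pairs lower, and the median over all pairs was -0.05.

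**Figure D3:**
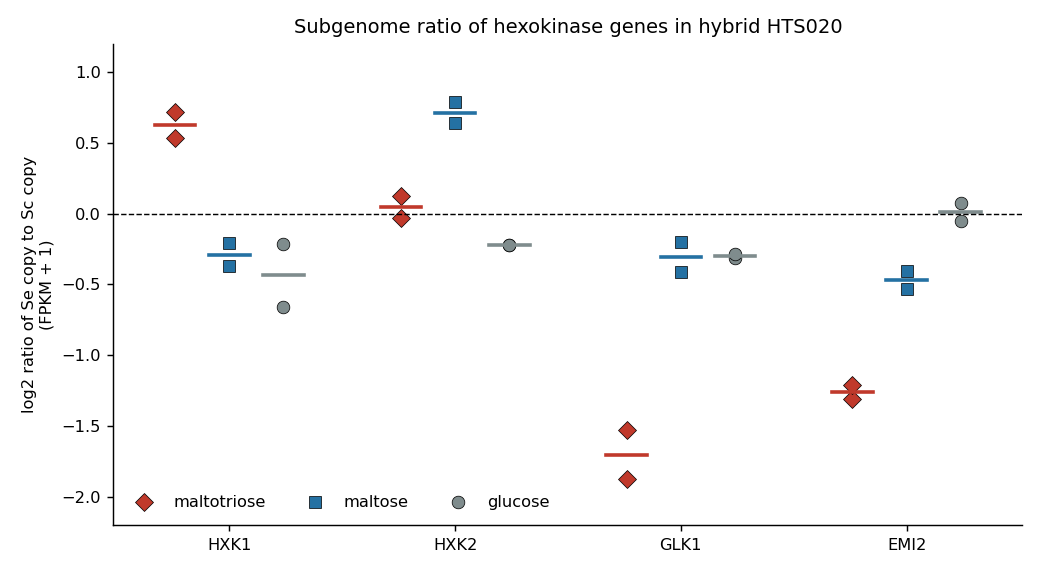
Log2 ratio of the Se copy to the Sc copy (FPKM + 1) of HXK1, HXK2, GLK1 and EMI2 in hybrid HTS020 by sugar, with 1 point per culture, a bar at the mean of the 2 cultures and a dashed line at equal levels. The points of GLK1 and EMI2 on maltotriose lie below those on maltose and glucose, those of HXK1 on maltotriose lie above the line, and those of HXK2 are highest on maltose.

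The makeup of the family was described by the share of each gene in the FPKM sum of all 4, with both copies added in the hybrid. The shares add up to 100% and therefore do not move independently, and they are given as values only. Averaged over IMX1939, IMX1765 and HTS020, HXK2 made up 9.06% on maltotriose, 16.1% on maltose and 44.4% on glucose. HXK1 made up 60% on maltotriose, 64.4% on maltose and 41.4% on glucose. The share of GLK1 was 24.6%, 12.9% and 8.32% in the same order of sugars, and that of EMI2 6.35%, 6.54% and 5.90%. The ratio of HXK1 to HXK2 spanned 0.238 to 27.6 over the 20 libraries while the sum of the 4 genes spanned 924 to 6480 FPKM.

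The HXK2 share was lower on maltotriose than on glucose in each strain, with differences of -40.6 percentage points in IMX1939, -21.7 in IMX1765 and -43.7 in HTS020. For maltose against glucose they were -28.7, -24.2 and -31.8 points in the same order of strains. In IMX1765 on maltotriose the HXK2 share was 28.6% in the shallow first library (285 reads of HXK2) and 5.22% in the second. The mean of both was 2.48 points above that on maltose in this strain. The shallow library also enters the maltotriose averages over strains. In IMX1939 the first glucose culture had an HXK2 share of 72.8% and the second of 22.8%, below the 26.9% of the first maltose culture. In HTS020 on maltotriose HXK2 made up 2.85 and 3.16%, and GLK1 reached 42% in both cultures, next to HXK1 at 47.2 and 48.2%. In the S. eubayanus strains GLK1 did not exceed 20.6% of the sum. The stacked plot of shares shows a narrower band of HXK2 on maltotriose and maltose than on glucose in most pairs of cultures, with IMX1939 on glucose the least even.

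**Figure D4:**
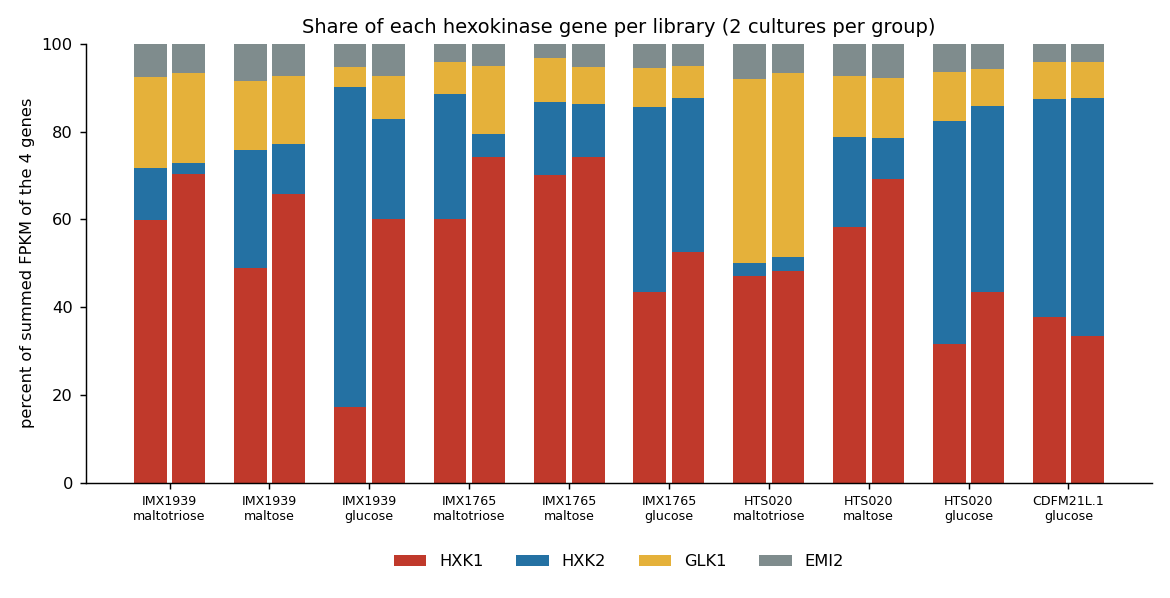
Share (%) of HXK1, HXK2, GLK1 and EMI2 in their summed FPKM for each of the 20 libraries, with the 2 cultures of a group side by side and both copies of the hybrid added. HXK2 takes 42.4 to 50.9% in HTS020 on glucose and 2.85 to 3.16% on maltotriose, where GLK1 takes 42%.

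Across the 13 S. eubayanus libraries of at least 1000000 reads, Pearson's r of log2(FPKM + 1) was 0.94 for HXK1 with GLK1, 0.89 for HXK1 with EMI2 and 0.93 for GLK1 with EMI2, and -0.65, -0.79 and -0.66 for HXK2 with HXK1, GLK1 and EMI2. These values describe 13 libraries that share strains and sugars and are no test. Among 4930 rows the 5 most like HXK1 were STF2 (0.96), CYC7 (0.96), YMR086W (0.95), HXT6 (0.95) and GLC3 (0.95), with GLK1 in place 7. The rows most like GLK1 were AIM17 (0.98), GSY1 (0.98), MRP8 (0.98), TSL1 (0.98) and GLG2 (0.98), and those most like EMI2 were GSY1 (0.97), TDA1 (0.97), YGR130C, RFS1 and YKL151C (0.96 each). GSY1 and GLG2 act in glycogen synthesis and TSL1 in trehalose synthesis. The rows most like HXK2 were LEU9 (0.98), RPL10 (0.98), YCR087C-A (0.97), NOP1 (0.97) and RPS2 (0.97), of which RPL10 and RPS2 encode ribosomal proteins and NOP1 a protein of ribosome assembly.

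The enzymes that make or use glucose 6-phosphate and its neighbours (14 genes) were described next. In IMX1939 on maltotriose against glucose 3 rose and 2 fell, shares near the 23.8% and 16% of all rows, with a median of 0.47 beside 0.05 for all rows. FBP1, encoding the gluconeogenic fructose-1,6-bisphosphatase, had 272 to 312 FPKM on maltotriose and 0.538 to 0.779 FPKM on glucose (log2 7.47, limma with Benjamini-Hochberg adjusted p = 0.000157). PGM2, a phosphoglucomutase gene, rose by 3.75 (SE 1.28, limma adjusted p = 0.0424), with 775 to 2570 FPKM on maltotriose and 21.7 to 485 FPKM on glucose. PFK27, for a kinase that makes the glycolytic activator fructose 2,6-bisphosphate, fell by 2.62 (limma adjusted p = 0.00261). PFK26, for another kinase with this product, went the other way and rose by 1.03 (limma adjusted p = 0.00631). In the hybrid on maltotriose against glucose 4 Se rows rose and 7 of 14 fell, and 5 Sc rows rose and 3 of 15 fell, where 31.3% of all rows were called higher and 39.7% lower. The subgenomes were not compared by a test here. FBP1 rose in both subgenomes (log2 6.38 for Se and 4.94 for Sc, limma adjusted p = 1.14e-06 and 4.08e-06). In the hybrid on maltose against glucose 3 Se rows rose and 2 fell, and 3 Sc rows rose and 3 fell, where 8.47% of all rows were called higher and 2.98% lower. ScPGM2 was among them, higher by 2.93 (limma adjusted p = 0.0454), with 90.8 and 519 FPKM on maltose and 21.7 and 35.3 FPKM on glucose. PGI1, whose product follows the hexokinases in glycolysis, fell by 0.75 in IMX1765 and by 0.74 in IMX1939 on maltose against glucose (limma adjusted p = 0.0349 and 0.024).

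Genes of the glucose signalling around Hxk2 and Mig1 (15 genes) gave calls in both directions. STD1, which acts with the glucose sensors, had 0.359 to 0.668 FPKM on maltotriose and 42.6 to 54.7 FPKM on glucose in IMX1939 (log2 -5.03, limma with Benjamini-Hochberg adjusted p = 0.0062). In the hybrid on maltose it differed from glucose by -3.38 for SeSTD1 and -3.49 for ScSTD1 (limma adjusted p = 0.000166 and 0.000196). MIG3, a relative of MIG1, fell by 3.15 in IMX1765 on maltose and by 2.61 in IMX1939 on maltotriose (limma adjusted p = 0.0376 and 0.0296). SIP2, a subunit gene of the Snf1 kinase complex, rose on maltose by 2.06 in IMX1765 and 2.97 in IMX1939 (limma adjusted p = 0.00947 and 0.000791), and on maltotriose by 3.33 for ScSIP2 (4.05e-06). In the IMX1939 comparison of maltotriose with glucose 4 of 15 genes rose and 4 fell, beside 23.8% and 16% of all rows, with a median of 0.04 beside 0.05 for all rows. In the hybrid on maltotriose 3 Se genes rose and 5 fell, and 6 Sc genes rose and 5 fell, of 15 each, beside 31.3% and 39.7% of all rows.

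YLR446W, whose sequence is related to the hexokinases, had 18.2 to 40.3 FPKM on maltotriose and 7.53 to 9.23 FPKM on glucose in IMX1939 (log2 1.59, limma with Benjamini-Hochberg adjusted p = 0.00575). In the hybrid the Se copy had 37.1 to 39.2 FPKM on maltotriose and 5.68 to 6.05 FPKM on glucose, and the Sc copy 15.1 to 19.9 and 4.26 to 5.03 FPKM (log2 2.51 and 1.70, limma adjusted p = 0.000124 and 0.00123). On maltotriose SeYLR446W therefore had a higher FPKM than SeHXK2 in both hybrid cultures. GAL3, a relative of galactokinase that acts in induction of the GAL genes in S. cerevisiae, rose on maltotriose against glucose by 1.79 in IMX1939, 1.52 for SeGAL3 and 2.42 for ScGAL3 in the hybrid (limma adjusted p = 0.000205, 0.000128 and 5.06e-05).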

How the data were processed

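The members and gene lists were chosen with earlier results of these data known. Per the study's methods, libraries (TruSeq RNA V2) were mapped with a two-pass STAR procedure (2.5.3a in the submitters' notes), ambiguous reads were removed, and the authors deposited FPKM per gene from edgeR. The methods name htseq-count and the notes featureCounts (Subread 1.6.3) for counting. Reads were recovered from FPKM and gene length for 100% of values (within 0.1 read). Groups were taken from the titles, and 0 value columns stayed unassigned.

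Limma 3.58.1 (R 4.3.3) was fitted to log2(FPKM + 1) of rows with a mean of at least 1 FPKM, with a trend in eBayes and Benjamini-Hochberg adjustment per comparison (5404 rows in 14 libraries, 10990 in 6), and checked on simulated data. The simulated cultures had a small, even spread and no shift of whole cultures. The check therefore does not cover groups whose cultures stood far apart. The kinds of table were not tested against each other. Log2 differences are on the pseudocount scale, and folds given with ± are ratios of mean FPKM. A permutation test of the shares was run, and its p-values are not printed. The members were chosen with results known, a limit that also bears on the limma tests. Genes named beside the members are the 3 largest rises and falls among called list genes without overlap, the 5 rows most similar to each member, and other sugar kinases. PFK26 was added beside PFK27. Upstream windows and identities came from the S288C reference genome, as no promoter table was given, with Biopython 1.88, and tables from Python 3.11.15 (NumPy 2.4.6). Replicates are 2 cultures per group, which the methods call biological duplicates. Alternatives were a pseudocount of 0.1, no filter or a filter at 5 FPKM, rescaling, quantile normalization, a replicate block (also with crossed maltotriose numbers), no trend, other sets of libraries, limma voom on recovered reads and leaving out each culture.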

Additional observations from a re-analysis of the deposited data

Results flagged for a closer look

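In hybrid HTS020 the Se and Sc copies of a gene responded differently to a change of sugar in 10 of 12 tests, by limma on the log2 ratio of Se to Sc. On maltose against glucose the response of the Se copy exceeded that of the Sc copy by 0.94 for HXK2 and differed from it by -0.48 for EMI2. On maltotriose against glucose the differences were 1.06 for HXK1, 0.27 for HXK2, -1.40 for GLK1 and -1.27 for EMI2. On maltotriose against maltose they were 0.92 for HXK1, -0.67 for HXK2, -1.40 for GLK1 and -0.79 for EMI2. Ratios also changed for 5.09%, 60.8% and 59.1% of all pairs in these comparisons, so that only the maltose comparison has a low background. In the maltose comparison the HXK2 difference was called without any one of the 4 cultures and the EMI2 difference was not.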

How the results depend on the processing

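All values rest on 2 cultures per group, so that no permutation of a single comparison can give a p below 0.333. A lone culture in a group was assumed to vary like the other groups. The first maltotriose culture of IMX1765 is the one shallow library.

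Counts of called genes out of 4 (S. eubayanus strains) or 8 copies (hybrid) moved as follows. With only the compared groups in the fit, 2 genes were called for IMX1765 on maltose against glucose and 2 for IMX1765 against CDFM21L.1, both 0 otherwise, while all rows called went to 1849 in place of 505 and to 1678 in place of 2. For IMX1939 on maltotriose against glucose only HXK2 was called, 1 gene in place of 2, and 1177 of all rows in place of 2152. Without the maltotriose group of IMX1765, 1 was called for IMX1939 on maltotriose against maltose (725 of all rows in place of 80). With a culture left out its group holds a lone culture, so differences are given in place of counts for the S. eubayanus strains. HXK2 ran from -1.39 to -0.04 in IMX1765 on maltotriose against glucose. Without the second maltotriose culture of IMX1765, only its shallow library (285 reads of HXK2) stood for that group. HXK2 then differed by -1.49 between IMX1939 and IMX1765 on maltotriose, in place of -0.81. In the difference of their responses to maltotriose it was at -1.68 in place of -1.01. For the hybrid, the share of all rows called with a culture left out was not set beside the counts of ratios or copies. A fall in these counts is therefore no result about the hexokinase genes alone. Counts of called copies are listed with that limit. In the hybrid they ranged from 1 to 7 on maltose and 3 to 5 on maltotriose against glucose. Without one culture 1 of 4 ratios changed on maltose against glucose, and 3 to 4 on maltotriose against glucose.

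As a replicate block, culture numbers raised the count for IMX1939 on maltotriose against glucose to 4, with HXK1 at 2.16 (limma with Benjamini-Hochberg adjusted p = 0.0303) and EMI2 at 1.34 (0.0385), and called 2535 of all rows in place of 2152. In the hybrid it added SeHXK1 on maltotriose against glucose (0.0283), with 7675 of all rows called in place of 7808. On maltotriose against maltose it added SeHXK1 and SeGLK1 (0.0116 and 0.0464), with 6998 of all rows in place of 7122. With the maltotriose numbers crossed SeHXK1 was called in both comparisons too (limma adjusted p = 0.0216 and 0.00833). Its calls thus do not depend on the numbering. The labels do not say that a number marks a shared batch or day, and with 2 cultures per group pairing could not be established. Correlations of same-numbered deviations were -0.463 to 0.179 between CDFM21L.1 and the other strains, 0.106 to 0.697 among the groups of IMX1765 and IMX1939, highest within IMX1939 (0.574, 0.594 and 0.697), and -0.137 to 0.258 in the hybrid. In IMX1939, HXK1, GLK1 and EMI2 were higher on maltotriose than on glucose within each number. Pairing in the engineered strains is therefore a hint from the data, not the design.

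Signs changed for ScHXK1 on maltotriose against glucose, from -0.01 to 0.14 with median-ratio rescaling, where leaving out one culture gave -0.43 to 0.41. Likewise SeEMI2 and SeHXK1 ranged from -0.13 to 2.18 and from -0.32 to 3.33 in IMX1939 on maltose against glucose, and the HXK1 and GLK1 ratios from -0.076 to 0.37 and from -0.11 to 0.10 in the hybrid on maltose against glucose.

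Shares of the family were described by their values only. Without the hybrid the mean differences were 21.4 points for HXK1 and -26.5 for HXK2 on maltose against glucose, 22.7 and -31.1 on maltotriose against glucose, and 1.39 in place of -4.44 for HXK1 on maltotriose against maltose. With one culture left out they ran from 15.9 to 30.2 and from -36.6 to -19.9 points, from 11.4 to 25.7 and from -43.6 to -27.0 points, and for maltotriose against maltose from -11.0 to -3.18 points for HXK2, -7.27 to -1.61 for HXK1 and -0.524 to 0.139 for EMI2.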
